A study of Mus musculus with 15 samples.

Results

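The nuclear-encoded subunits of the mitochondrial respiratory chain and ATP synthase were followed by RNA sequencing in an immortalised mouse line of brown preadipocytes (cells that can mature into brown fat cells). They were chosen by gene symbol (Nduf, Sdh, Uqcr, Cyc1, Cox4 to Cox8 and Atp5 names) and by level, at least 0.5 RPKM (reads scaled by transcript length and library size) in at least 3 libraries. Of 84 symbols that fitted the names, 81 passed, among 13869 genes tested. These were 35 members counted with complex I, 4 with complex II, 9 with complex III, 16 with complex IV and 17 with complex V. Ndufa4, named for complex I, is counted with complex IV, and so is Cox7a2l, a supercomplex factor. Atp5s and Atp5sl, which are not subunits, are counted with complex V. Cox7b2, Cox8b and Cox8c were listed at 0 in every library. Cox4i2 passed by the smallest margin, with 3 libraries at or above the limit and a highest value of 0.778 RPKM.

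The cells came from the stromal-vascular cells of the interscapular brown fat pad of 129SvEv mice and carry SV40 large T antigen, which all 5 groups share. The control group had no agent. The treated cells had 5.56 nM FGF1, FGF8b or FGF9 (fibroblast growth factors that act between neighbouring cells) for 48 h, or FGF8b plus BAY-876 at 2 µM, which blocks glucose uptake through GLUT1, with 3 libraries in each group. FGF8b plus BAY-876 is written as BAY-876 where groups are listed. The series text gives 1 µg/ml heparin to the FGF-treated cells, while the sample labels name it for FGF9 alone. Whether the controls had heparin or the same time in culture is not stated, and no group had heparin alone or BAY-876 alone.

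Complex I passes electrons from NADH, and complex II from succinate, to coenzyme Q. Complex III passes them on to cytochrome c and complex IV to oxygen, and complex V uses the proton gradient to make ATP. Brown fat cells are packed with mitochondria, and uncoupling protein lets their respiratory chain turn the gradient into heat. Most subunits are encoded in the nucleus. Some exist as a general form and a form named for muscle, heart, testis or low oxygen, called restricted here. These names do not mean that a form is absent from other tissues, brown fat among them.

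The libraries held 27.0 to 42.6 M reads. The summed level of 10 preadipocyte and mesenchymal markers was 2871 to 3286 RPKM in the control libraries and 2160 to 2239 in the FGF1 libraries. It was 1363 to 1688 RPKM with FGF8b, 1246 to 1574 with FGF9 and 1614 to 1744 with BAY-876. The median log2 change of the 10 markers over control was 0.05 with FGF1, -0.76 with FGF8b and -0.72 with FGF9. For BAY-876 over FGF8b it was -0.87. For all genes these medians were 0.02, 0.08, 0.09 and -0.08. The sum and the median marker thus did not always go the same way. Of 7 markers of mature adipocytes Lep was at 0 throughout, Adipoq stayed under 0.05 RPKM in mean, and the sum was 5.04 to 9.27 RPKM in all groups, nearly all of it Fabp4. Of 4 endothelial markers the sum was 7.45 to 8.86 RPKM in control and 0.327 to 1.68 in the treated groups. The summed FGF response genes Dusp6, Spry4, Etv4 and Etv5 were at 5.19 to 7.28 RPKM in control, 76.6 to 84.3 in FGF8b, 95.4 to 105 in FGF9 and 68.2 to 75.8 with BAY-876, and at 2.83 to 4.78 in FGF1, below control. The sum of Txnip and Arrdc4, which respond to glucose, was 103 to 115 RPKM in FGF8b and 1.40 to 2.22 with BAY-876. The part of these shifts in the results below was not tested.

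The subunits were among the abundant transcripts of these cells. Their median level (mean ± SD of 3 libraries) was 83.8 ± 3.87 RPKM with FGF8b and 81.6 ± 1.63 with FGF9, and 72.3 ± 5.19 in the controls, 69.2 ± 0.569 with FGF1 and 72.6 ± 3.72 with BAY-876. The median over all genes tested was 8.66, 8.82, 8.60, 8.65 and 8.30 RPKM in the same order. In a bulk sample, fewer cells of a kind and less RNA per cell cannot be told apart. By complex, the control medians were 63.0 ± 1.29 RPKM for complex I, 58.2 ± 3.64 for II, 54.6 ± 8.68 for III, 119.9 ± 9.14 for IV and 158 ± 4.45 for V. The order of the first 3 did not exceed the spread of complex III, and complexes IV and V stood above them.

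Within groups, the libraries differed in a shared way. One axis held 63.2% of the spread of the 81 members around their group means, and control library 1, FGF9 library 2 and BAY-876 library 2 lay at its upper end, with control library 3, FGF9 library 1 and BAY-876 library 1 at its lower end. The members highest on it were Uqcrq, Ndufs7, Uqcr11, Ndufb7, Ndufa13, Ndufa2, Atp5d and Ndufa7. Across 80 members, the position on this axis had a Pearson correlation of 0.58 with transcript GC content, given as a description of points that share libraries. Values that rest on these libraries are given with and without them below.

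**Figure D1:**
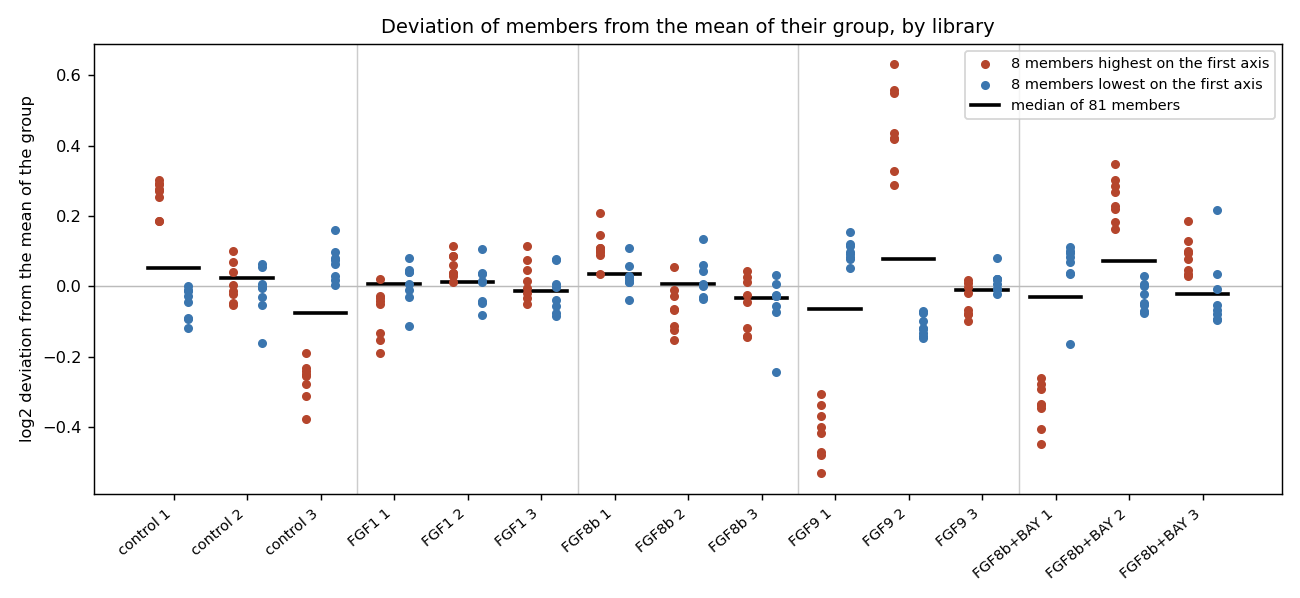
Each column is 1 library, and the vertical axis is the log2 deviation of a member from the mean of its group. Red dots are the 8 members highest and blue dots the 8 lowest on the first axis of within-group spread, and the black bar is the median of all 81 members. The red dots lie above 0 in control 1, FGF9 2 and BAY-876 2 and below 0 in control 3, FGF9 1 and BAY-876 1.

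The promoters of the subunits carry sites named in the literature as binding sites of nuclear respiratory factor 1 (NRF1), the ETS factor GABP, the estrogen-related receptors (ERR) and YY1. RefSeq promoters (GRCm38.p6, 250 bases before to 50 after the start) were at hand for 66 of the 84 symbols and 27025 genes. Among the entries missing are those of Atp5a1, Atp5f1, Atp5s, Atp5sl, Cox4i1, Cox4i2, Cox6a2, Cox6c, Cox8c, Cyc1, Ndufa2, Ndufb9, Ndufs1, Sdhc, Uqcrb, Uqcrc2 and Uqcrq. Both strands were searched. The NRF1 core GCGCATGCG was in 8 of 66 promoters (12.1%), against 1.95% of all promoters and 4.09% of those of 9674 tested genes. The looser form GCGCANGCG, which includes the core, was in 20 (30.3%, against 7.03% and 15.2%). The ETS core CCGGAAG was in 16 (24.2%, against 9.93% and 19.8%), the YY1 core AAGATGGC in 9 (13.6%, against 3.19% and 5.21%), and the ERR site TCAAGGTCA in 2 (3.03%, against 0.466% and 0.351%). The looser NRF1 form was in 7 of the 27 promoters of members that rose in FGF8b and in 13 of the 35 that did not pass there. A match describes the letters only. Shown here, from upstream stretches free of exons, are a subunit that fell in FGF8b (Uqcrh), members that rose there and fell with BAY-876 (Atp5h, Ndufs5 and Ndufb6), one that rose with BAY-876 (Atp5l) and one of the ERR matches (Atp5g3), with the motif in capitals. All are written 5′ to 3′ along the gene, in GRCm38.p6.
Uqcrh chr4:116075072-116075110, minus strand: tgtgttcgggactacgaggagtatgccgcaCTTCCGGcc
Atp5h chr11:115420022-115420090, minus strand: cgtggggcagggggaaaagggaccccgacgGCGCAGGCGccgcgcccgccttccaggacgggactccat
Ndufs5 chr4:123718246-123718314, minus strand: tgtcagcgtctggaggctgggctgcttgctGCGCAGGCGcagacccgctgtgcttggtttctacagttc
Ndufb6 chr4:40279617-40279671, minus strand: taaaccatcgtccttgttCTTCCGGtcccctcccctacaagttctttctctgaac
Atp5l chr9:44920918-44920992, minus strand: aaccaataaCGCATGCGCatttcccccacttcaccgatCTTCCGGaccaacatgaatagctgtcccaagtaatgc
Atp5g3 chr2:73911340-73911408, minus strand: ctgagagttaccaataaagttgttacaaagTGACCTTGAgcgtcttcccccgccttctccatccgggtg
The capitals mark the ETS core on the opposite strand in Uqcrh (10 bases before the start) and Ndufb6 (232 bases before), and the looser NRF1 form in Atp5h (141 bases before) and Ndufs5 (98 bases before). Atp5l holds the NRF1 core (241 bases before) and the ETS core, both on the opposite strand, and Atp5g3 the ERR site on the opposite strand (52 bases before).

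FGF8b was first compared with control. In limma with Benjamini-Hochberg adjustment over all genes, 36 of 81 members rose, 5 fell and 40 did not pass an adjusted p of 0.05. The share that rose was 44.4%, against a background of 37.8% of all genes, the share that fell 6.17%, against 26.6%, and the share called in either direction 50.6%, against 64.4%. The median log2 fold change of the members was 0.11, against 0.08 for all genes. It was 0.03 with trimmed-mean scaling (all genes 0.02) and -0.01 with the length trend removed (all genes -0.00). The split depended on scaling. It was 21 up and 8 down with trimmed-mean scaling (background 32% and 30.8%), 16 and 15 with the trend on transcript length removed (30.8% and 31.8%), and 26 and 10 of 80 with the trend on GC content removed (33.3% and 34.5%). The subunits are short transcripts, with a median of 530 bases against 1461 for all genes, and their median GC content was 52.5% against 50.6%. Of the members, 40 (49.4%) had libraries that did not overlap between the groups, against 67.5% of all genes. Nothing says that the 3 libraries of a group were separate cultures, so p-values measure the spread between these samples only.

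**Figure D2:**
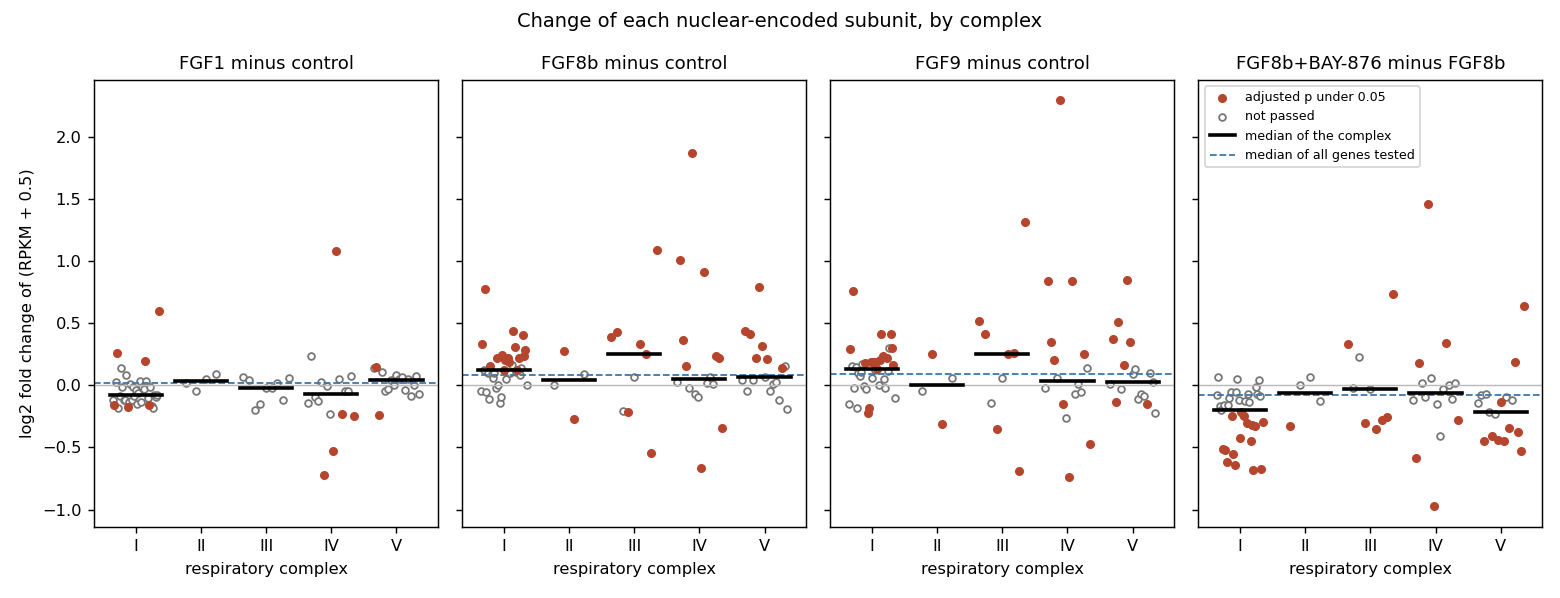
Each dot is 1 subunit, placed by complex on the horizontal axis and by its log2 fold change of RPKM + 0.5 on the vertical axis, in 4 comparisons. Filled dots passed an adjusted p of 0.05, the black bar is the median of the complex and the dashed line the median of all genes tested. Most dots lie within 0.5 of 0, and Cox6a2 is the highest in 3 of the panels.

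By complex, 16 of 35 members of complex I rose with FGF8b and 0 fell, with a median change of 0.12 on the log2 scale that turned to -0.01 with the length trend removed. Of its 7 core subunits, which carry the flavin and iron-sulfur centres or the quinone site, 5 rose, among them Ndufs1, Ndufs8 and Ndufv2. Of its 28 accessory subunits 11 rose (39.3%), near the 37.8% of all genes. In complex II 1 rose and 1 fell, in III 5 rose and 2 fell (median 0.25, and 0.13 with the length trend removed), in IV 7 rose and 2 fell (median 0.05), and in V 7 rose and 0 fell (median 0.07). The share that rose was 45.7% in complex I, 43.8% in IV and 41.2% in V, against 37.8% of all genes. Of all genes 26.6% fell. The 7 of complex IV include Cox6a2 and Cox4i2, which passed the filter on level through groups where they are high. The medians of complexes IV and V were -0.03 and -0.01 with trimmed-mean scaling, and -0.07 and -0.03 with the length trend removed.

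Cox6a2 encodes the heart and skeletal muscle form of subunit 6a of cytochrome c oxidase (complex IV). It lies on the minus strand at chr7:128205435-128206387 (GRCm38, GENCODE vM21). Its level was 0.266, 0.442 and 0.558 RPKM in control, 3.73, 3.19 and 1.89 in FGF8b, and 2.97, 5.82 and 3.62 in FGF9. In FGF1 it was 0, 0.0861 and 0.0789 RPKM, and with BAY-876 6.79, 10.8 and 9.0. The FGF8b and FGF9 libraries all lay above control, the BAY-876 libraries above those, and the FGF1 libraries below control. The log2 change of RPKM + 0.5 was 1.87 ± 0.23 (SE) in FGF8b (limma, adjusted p = 3.4e-06), 2.30 ± 0.23 in FGF9 (adjusted p = 3.2e-07) and 1.46 ± 0.23 for BAY-876 added to FGF8b (adjusted p = 6.4e-05). Cox6a2 passed the filter on level through the groups where it is high. The added 0.5 understates the change of a low gene. By reads, 122 in FGF8b against 19 in control, the ratio of levels was 7.02 (95% exact interval 4.31 to 12.1, counting error only), and 410 against 122 reads with BAY-876 gave 2.93 (2.39 to 3.61). In FGF1 2 reads gave a ratio to control of 0.124 (0.0140 to 0.513), with a log2 change of -0.72 ± 0.23 (limma, adjusted p = 0.024) that did not pass with 1 RPKM added (adjusted p = 0.115) or with no filter on low values (adjusted p = 0.059). It did not pass either without control library 2 or 3 or FGF1 library 1 (-0.62 to -0.70, adjusted p = 0.065 to 0.087).

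The general form, Cox6a1, did not pass in any of these comparisons. The share of Cox6a2 in the summed RPKM of both forms was 0.425% ± 0.156 (SD, n = 3) in the controls and 0.0533% ± 0.0464 with FGF1. It was 2.93% ± 0.971 with FGF8b, 3.73% ± 0.602 with FGF9 and 8.69% ± 0.739 with BAY-876. Of 8 skeletal muscle markers, Myl1, Myog and Myod1 were at 0 in every library. The sum, most of it Acta1, was 5.53 to 6.02 RPKM in control, 4.26 to 6.20 in FGF8b and 4.99 to 5.68 in FGF9. It was 5.60 to 7.57 RPKM with BAY-876 and highest with FGF1, at 8.34 to 9.68. Of 4 heart markers, the sum was 1.31 to 1.66 RPKM in control, 2.00 to 2.23 with FGF1 and 1.40 to 2.23 in FGF8b. It was 1.67 to 2.31 RPKM with BAY-876 and 0.610 to 1.17 in FGF9, below control. Cox6a2 shares 70 exonic bases with Itgad on the other strand.

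Other restricted forms of complex IV were low. Cox7a1, the heart and muscle form of subunit 7a, was at 1.80, 1.38 and 0.509 RPKM in control, 2.54, 2.68 and 2.51 in FGF8b, 2.19, 2.63 and 2.49 in FGF9 and 2.47, 3.44 and 3.06 in FGF1. All 9 libraries with 1 FGF alone lay above control, and control 3 was the lowest. It rose by 1.08 ± 0.22 in FGF1 (limma, adjusted p = 0.0011), 0.91 ± 0.22 in FGF8b (adjusted p = 0.0018) and 0.84 ± 0.22 in FGF9 (adjusted p = 0.003), on the log2 scale. Without control 3 these were 0.74, 0.56 and 0.49, and they still passed. Both skeletal muscle markers that could be tested were also higher in FGF1 than in control, and the part of this in the Cox7a1 value was not tested. Cox4i2, the low-oxygen form of subunit 4, had 4 reads in all control libraries and 42 in FGF8b, a ratio of 11.5 (95% exact interval 4.17 to 44.1). It passed the filter only through 2 FGF8b libraries and 1 FGF9 library, so its values are a description and no test of it is given. With BAY-876 its level was 0.26, 0.232 and 0.226 RPKM against 0.662, 0.424 and 0.778 in FGF8b, and these libraries did not overlap. Cox6b2, the testis form of subunit 6b, was at 1.60, 2.07 and 1.38 RPKM in FGF8b and 0.411, 0.952 and 0.509 with BAY-876, a change of -0.97 ± 0.18 (adjusted p = 0.00029). It did not pass in FGF1, FGF8b or FGF9 against control.

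**Figure D3:**
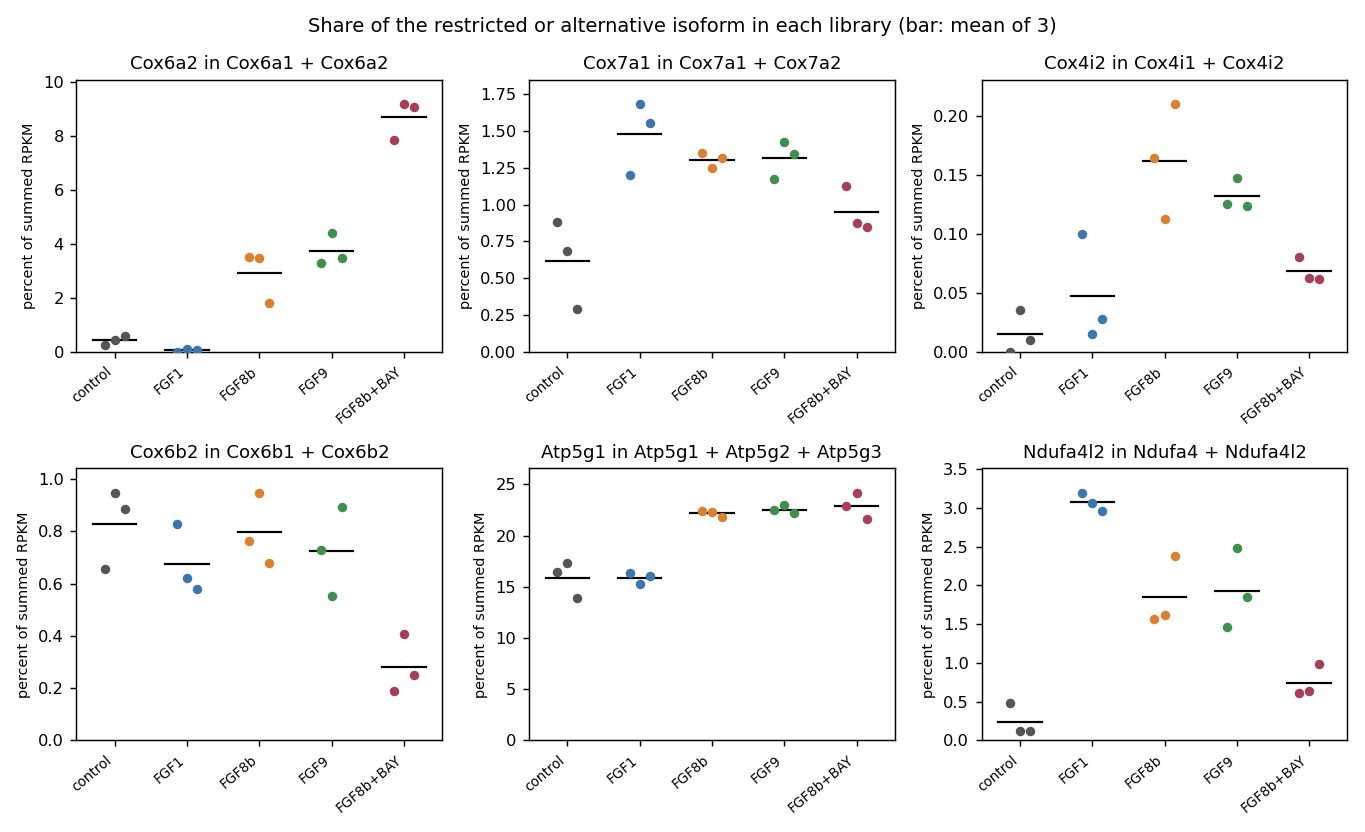
Each dot is the share of 1 isoform in the summed RPKM of its isoforms in 1 library, in percent, with bars at the mean of 3 libraries. The horizontal axis gives the groups. The Cox6a2 share was 0.425% in control and 8.69% in FGF8b with BAY-876, and the Atp5g1 share 15.9% and 22.9%.

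Uqcrq, a small subunit of complex III (chr11:53427922-53430831, minus strand), was at 33.8, 29.9 and 21.3 RPKM in control and 68.9, 56.8 and 54.0 in FGF8b. In FGF9 it was 48.2, 108 and 65.2 RPKM, in FGF1 27.9, 30.7 and 28.3, and with BAY-876 72.7, 126 and 107. The FGF8b, FGF9 and BAY-876 libraries all lay above the control and FGF1 libraries. It rose by 1.09 ± 0.25 in FGF8b (limma, adjusted p = 0.0011) and 1.31 ± 0.25 in FGF9 (adjusted p = 0.00021). Since Uqcrq headed the axis of within-group spread, each library was left out in turn, and the changes stayed at 0.90 to 1.22 and 1.00 to 1.58, with a highest adjusted p of 0.0081. The rise with BAY-876 over FGF8b (0.73 ± 0.25, adjusted p = 0.018) did not pass without FGF8b library 2 or 3 or BAY-876 library 2 or 3 (0.56 to 0.70, adjusted p = 0.052 to 0.092). Cyc1, the cytochrome c1 of complex III, was at 33.9, 31.5 and 31.0 RPKM in control, 45.9, 40.1 and 41.1 in FGF8b, 40.8, 51.5 and 47.2 in FGF9 and 48.4, 57.4 and 54.5 with BAY-876. Its log2 change was 0.39 ± 0.08 in FGF8b and 0.52 ± 0.08 in FGF9. Uqcrfs1, the Rieske iron-sulfur protein, rose by 0.25 ± 0.04 and 0.26 ± 0.04, and Uqcrc2 by 0.33 ± 0.06 and 0.25 ± 0.06.

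Among the other members, Atp5g1, 1 of 3 genes for the same c-ring protein of ATP synthase (chr11:96068852-96075670, minus strand), was at 61.5, 64.8 and 47.6 RPKM in control and 105, 96.6 and 97.3 in FGF8b. It was at 95.5, 114 and 102 RPKM in FGF9, at 61.0, 57.5 and 59.5 in FGF1 and at 79.7, 93.6 and 82.1 with BAY-876. The FGF8b and FGF9 libraries lay above those of control and FGF1 with no overlap. It rose by 0.79 ± 0.10 in FGF8b (limma, adjusted p = 3.8e-06) and 0.85 ± 0.10 in FGF9 (adjusted p = 1.6e-06). Atp5g2 rose by 0.32 ± 0.09 and 0.35 ± 0.09, and Atp5g3 (0.07 and 0.09) did not pass. With the length trend removed, Atp5g2 did not pass in FGF8b (0.20, adjusted p = 0.054). The share of Atp5g1 in the summed RPKM of the 3 genes was 15.9% ± 1.77 in the controls and 15.9% ± 0.540 with FGF1. It was 22.2% ± 0.280 with FGF8b, 22.5% ± 0.407 with FGF9 and 22.9% ± 1.25 with BAY-876. Atp5b, the catalytic beta subunit, rose from 354, 345 and 330 RPKM to 470, 461 and 461 in FGF8b (0.44 ± 0.04, adjusted p = 3.6e-07), while Atp5a1, the alpha subunit beside it, did not pass (0.04 ± 0.06).

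Ndufa12, an accessory subunit of complex I (chr10:94198720-94221443, plus strand), was at 39.1, 46.0 and 35.9 RPKM in control, 72.6, 66.3 and 68.2 in FGF8b and 64.1, 75.3 and 66.1 in FGF9. No library overlapped between control and either group. It rose by 0.78 ± 0.09 (limma, adjusted p = 2.2e-06) and 0.76 ± 0.09 (adjusted p = 2.5e-06). The core subunit Ndufs1, which holds iron-sulfur clusters, went from 28.4, 28.6 and 29.0 RPKM to 40.7, 38.3 and 38.4 in FGF8b (0.44 ± 0.06, adjusted p = 1e-05). Uqcr10, a small subunit of complex III, rose by 0.43 ± 0.13 in FGF8b, and did not pass without control 3 (0.31, adjusted p = 0.054).

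Of the 5 that fell with FGF8b, 2 belong to complex IV. Cox6c, a small subunit, was at 315, 298 and 295 RPKM in the control libraries and at 214, 219 and 198 with FGF1. It was at 197, 196 and 180 RPKM with FGF8b, 161, 201 and 184 with FGF9 and 173, 184 and 159 with BAY-876. All 12 treated libraries lay below control. It fell by 0.53 in FGF1 (limma, adjusted p = 5.7e-05), by 0.67 in FGF8b (adjusted p = 1.5e-06) and by 0.74 in FGF9 (adjusted p = 4.5e-07), each with an SE of 0.08. Cox6c shares 250 exonic bases with Vps13b on the other strand. Ndufa4, named for complex I and since assigned to complex IV, was at 292, 295 and 283 RPKM in control and 237, 232 and 215 in FGF8b (-0.34 ± 0.06, adjusted p = 0.00012). Uqcrh, the hinge protein of complex III (chr4:116066965-116075071, minus strand), was at 380, 416 and 345 RPKM in the control libraries, 352, 352 and 347 with FGF1, 244, 273 and 263 with FGF8b and 248, 234 and 223 with FGF9. Its change was -0.55 ± 0.07 in FGF8b (adjusted p = 3e-06), and FGF1 did not pass. Uqcrb fell by 0.21 with FGF8b (adjusted p = 0.01), which did not pass without control 3 (-0.16, adjusted p = 0.051).

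**Figure D4:**
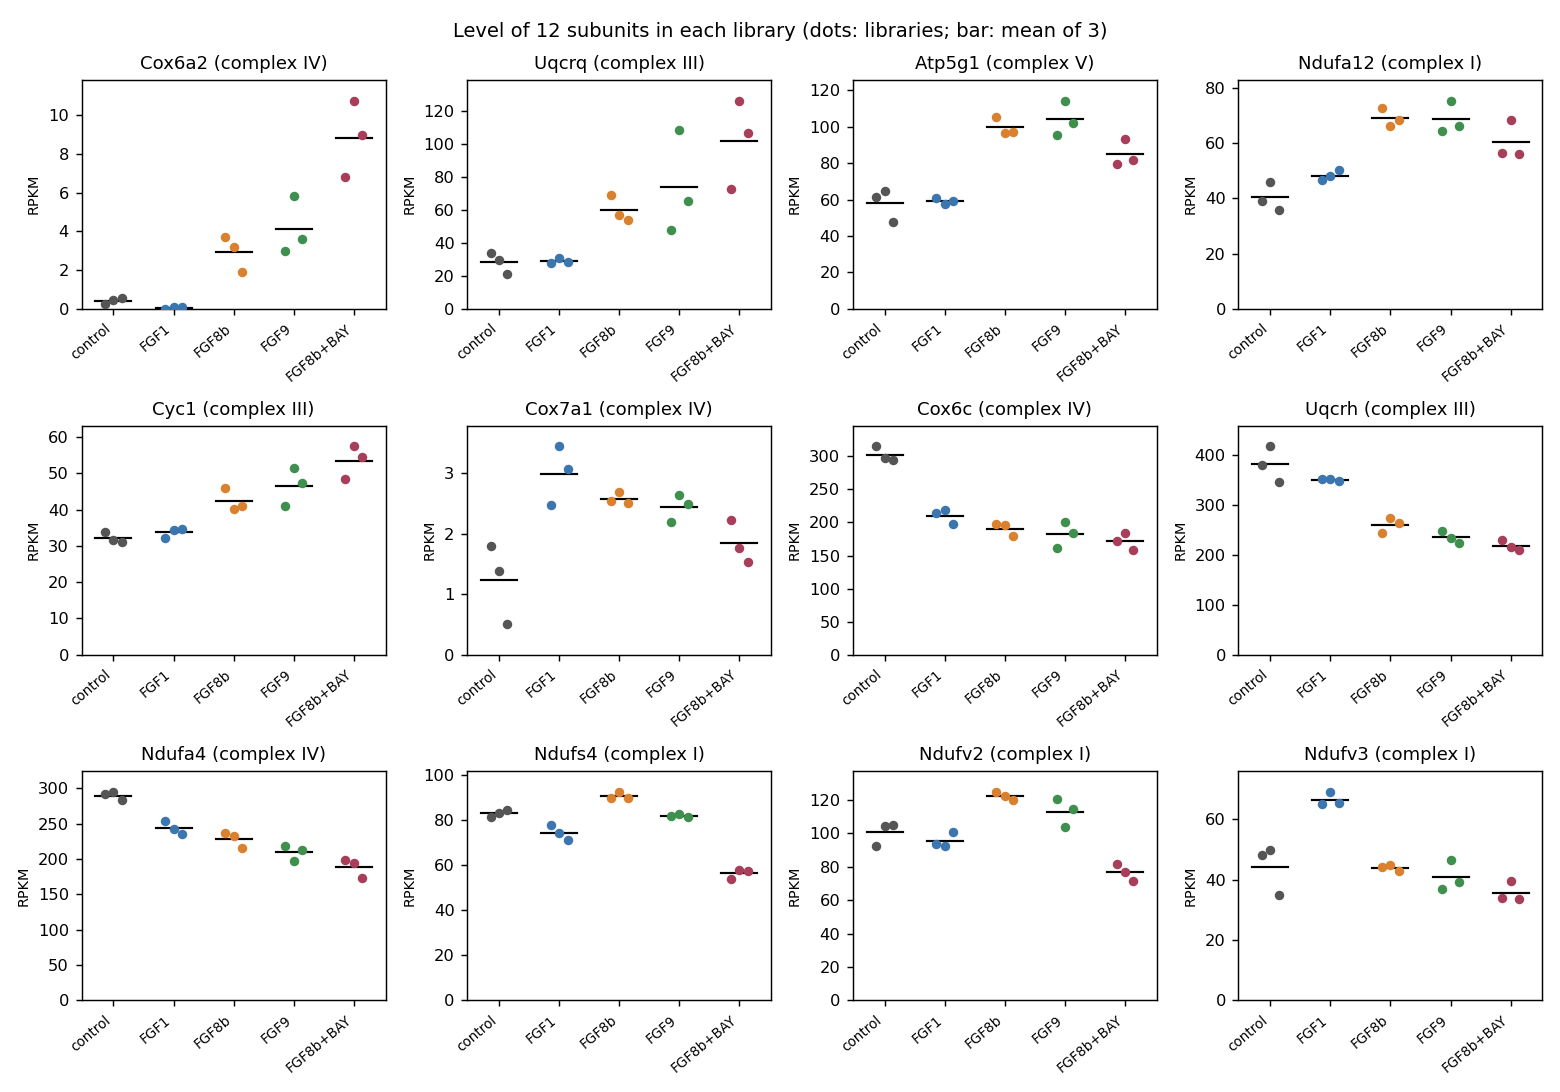
Each panel gives the RPKM of 1 of 12 subunits in every library, with bars at the mean of 3, over the 5 groups on the horizontal axis. The FGF8b and FGF9 dots lie above control for Cox6a2, Uqcrq, Atp5g1, Ndufa12 and Cyc1, and below it for Cox6c, Uqcrh and Ndufa4.

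Complex II, which has no mitochondrially encoded subunit, did not move as 1 unit. Sdhc, a membrane anchor, was at 57.2, 50.4 and 53.8 RPKM in control, 43.9, 42.9 and 46.8 in FGF8b and 41.8, 43.5 and 43.9 in FGF9. It fell by 0.27 and 0.32 (limma, adjusted p = 0.00033 and 7e-05). Sdhb, the iron-sulfur subunit, was at 67.5, 60.8 and 56.8 RPKM in control, 81, 73 and 70.6 in FGF8b and 66.5, 82.4 and 71.6 in FGF9, and rose by 0.28 ± 0.08 and 0.25 ± 0.08. The FGF9 libraries overlapped control for Sdhb, and the FGF9 rise did not pass without control library 3 (0.19, adjusted p = 0.068) or FGF9 library 2 (0.16, adjusted p = 0.079). With the length trend removed, Sdhb passed in neither (0.16 with FGF8b, adjusted p = 0.094, and 0.13 with FGF9, adjusted p = 0.17), and with trimmed-mean scaling not in FGF9 (0.17, adjusted p = 0.089). Sdha, the flavoprotein (91.5, 87.9 and 88.9 RPKM in control), and the other anchor Sdhd (50.4, 47.8 and 56.4) did not pass in either comparison. With BAY-876 Sdha was at 72.6, 69.5 and 71.6 RPKM, below the 90.3, 84.0 and 94.1 of FGF8b (-0.33 ± 0.05, adjusted p = 6e-05).

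The comparison of FGF9 with control used the same control libraries as that of FGF8b, and so did that of FGF1. With FGF9 31 members rose, against a background of 38.7% of all genes, 10 fell, against 27%, and 40 did not pass (65.7% of all genes were called in either direction). The libraries of 37 members did not overlap, against 65.8% of all genes. The split was 19 up and 15 down with trimmed-mean scaling (32.6% and 31.3% of all genes), 18 and 19 with the length trend removed (31.7% and 32.4%) and 21 and 16 of 80 with the GC trend removed (33.8% and 35.1%). By complex, 14 rose and 2 fell in I, 1 and 1 in II, 5 and 2 in III, 6 and 3 in IV and 5 and 2 in V. Ndufb3, Atp5l and Atp5c1 were among those that fell (-0.19, -0.15 and -0.13). Ndufb3 did not pass without control library 1 (-0.15, adjusted p = 0.076) or FGF9 library 3 (-0.18, adjusted p = 0.051). Atp5l, a membrane subunit, did not pass without control library 1 or FGF9 library 1 (-0.13 and -0.12), nor Atp5c1 without control library 3 or FGF9 library 2 (-0.12 and -0.10). In a fit of FGF9 and control alone neither Atp5l (adjusted p = 0.057) nor Atp5c1 (adjusted p = 0.081) passed. Ndufs8, a core subunit of complex I with iron-sulfur clusters, rose by 0.41 ± 0.10.

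Between FGF9 and FGF8b, limma called 0 of 81 members, against 0.296% of all genes (0.202% higher and 0.0937% lower). At an unadjusted p under 0.05, 0 were higher and 2 lower, Ndufs4 and Uqcrh (both -0.15 on the log2 scale), and voom on recovered reads also called 0. The libraries of 8 members did not overlap, against 10.8% of all genes. The log2 differences ran from -0.17 to 0.42, with a median of -0.04. These counts do not show that both factors act alike on the subunits.

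The FGF1 libraries, which had less of the FGF response genes than control, were compared with control next. Here 5 members rose, against a background of 19.3%, 8 fell, against 15.1%, and 68 did not pass (34.4% of all genes were called). The libraries of 21 members did not overlap, against 47.1% of all genes. Trimmed-mean scaling gave 3 up and 11 down (17.1% and 16.7% of all genes), removing the length trend 3 and 12 (15.5% and 18.2%), and removing the GC trend 3 and 17 of 80 (19.2% and 21.5%). The members that rose were Cox7a1, Ndufv3, Ndufa12, Ndufs1 and Atp5b. Ndufv3, an accessory subunit of the NADH-binding arm of complex I, was at 65.1, 68.9 and 65.2 RPKM in FGF1 against 48.3, 49.7 and 34.8 in control, 44.2, 44.7 and 42.8 in FGF8b and 36.8, 46.4 and 39.3 in FGF9. In the transcript line used, FGF1 stood above all other groups, with a rise over control of 0.60 ± 0.11 (limma, adjusted p = 0.00066). Over 7 Ndufv3 lines at 1 RPKM or more in some group, the log2 ratio of FGF1 to control ran from 0.03 to 0.58. The rise of Ndufa12 (0.26) did not pass without any 1 of the 6 libraries but control 2 (0.18 to 0.29). That of Ndufs1 (0.20) did not pass without control library 1 or FGF1 library 2 (both 0.19), nor that of Atp5b (0.14) without control library 3 or FGF1 library 1 or 2 (0.12 to 0.14). Nor did Ndufa12 and Atp5b pass with trimmed-mean scaling (adjusted p = 0.078 and 0.073), or Ndufs1 and Atp5b with the length trend removed (adjusted p = 0.080 and 0.053). Besides Cox6c, Cox6a2 and Ndufa4, the members that fell were Atp5c1 (-0.24), Cox7a2l (-0.23), Ndufa9 (-0.17), Ndufs4 (-0.16) and Ndufa10 (-0.16). Of these, Cox7a2l did not pass without control library 1 (-0.19), Ndufa9 without control library 2 or FGF1 library 3 (both -0.16), Ndufs4 without FGF1 library 3 (-0.13) and Ndufa10 without control library 3 or FGF1 library 1 or 2 (all -0.15). Over 5 Ndufs4 lines at 1 RPKM or more in some group, the log2 ratio of FGF1 to control ran from -0.16 to 0.07.

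FGF8b and FGF9 together were also set directly against FGF1. Of the members 40 were higher, against a background of 36.8% of all genes, 8 were lower, against 28.8%, and 33 did not pass (65.6% of all genes were called). The libraries of 44 members did not overlap, against 59.6% of all genes. The split was 31 and 11 with trimmed-mean scaling (32.8% and 32.3% of all genes), 29 and 17 with the length trend removed (33% and 32.2%) and 37 and 12 of 80 with the GC trend removed (35.3% and 35%). Complex I had 21 higher and 2 lower, with 6 of its 7 core subunits higher. The difference was 2.81 ± 0.20 for Cox6a2 (limma, adjusted p = 5.6e-09), 0.77 ± 0.09 for Atp5g1 (adjusted p = 9.3e-07), 0.47 ± 0.04 for Ndufa10 (adjusted p = 1.2e-07) and 0.49 ± 0.08 for Ndufs8 (adjusted p = 0.0001). Ndufv3 (-0.65 ± 0.10 in the transcript line used), Uqcrh (-0.50 ± 0.06) and Sdhc (-0.34 ± 0.05) were lower. Cox7a1 did not pass (-0.21 ± 0.19).

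FGF8b with BAY-876 was then set against FGF8b alone. Here 7 members rose, against a background of 22.5% of all genes, 32 fell, against 34.8%, and 42 did not pass (57.3% of all genes were called). The libraries of 46 members did not overlap, against 62.7% of all genes. The median log2 change was -0.15, against -0.08 for all genes. It was -0.05 with trimmed-mean scaling (all genes 0.00) and -0.07 with the length trend removed (all genes -0.01). The split was 9 up and 26 down with trimmed-mean scaling (29% and 28.1% of all genes), 9 and 28 with the length trend removed (27.8% and 29.2%) and 8 and 31 of 80 with the GC trend removed (30.6% and 31.8%). In complex I 0 rose and 16 fell, and in complex V 2 rose and 8 fell. Complex III had 2 up and 4 down, complex IV 3 and 3, and complex II 0 and 1. The medians of complexes I and V were -0.20 and -0.21, and -0.11 and -0.12 with trimmed-mean scaling.

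Ndufs4, an accessory subunit of complex I whose loss in mice causes a Leigh-like disease (chr13:114287795-114388258, minus strand), was at 90.1, 92.4 and 89.9 RPKM in FGF8b and 53.8, 58.0 and 57.4 with BAY-876. Control libraries were at 81.4, 83.4 and 84.6 RPKM, so the BAY-876 libraries lay below both groups. It fell by 0.68 (SE 0.05, limma adjusted p = 7.3e-09). Ndufv2, a core subunit with an iron-sulfur cluster, was at 125, 122 and 120 RPKM in FGF8b, 81.9, 76.7 and 71.7 with BAY-876 and 92.6, 104 and 105 in control, and fell by 0.67 (SE 0.07, adjusted p = 6.1e-07). Ndufb11 (-0.64), Ndufa5 (-0.62), Ndufb10 (-0.55) and Ndufa3 (-0.52) are accessory subunits that fell as well. Ndufb11 shares 117 exonic bases with Rbm10 on the other strand. In complex V, 3 of 4 peripheral stalk subunits fell: Atp5f1 by 0.40, Atp5h by 0.44 and Atp5o by 0.37. Atp5c1, the central stalk subunit, fell by 0.45 from 198, 205 and 197 to 152, 148 and 140 RPKM.

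The 7 that rose with BAY-876 were Cox6a2, Uqcrq, Atp5sl, Cox7a2l, Cyc1, Atp5l and Cox5a. Cox7a2l, a factor that joins complexes III and IV into supercomplexes, was at 135, 127 and 114 RPKM in FGF8b and 158, 164 and 154 with BAY-876, with no overlap (0.34 ± 0.06, limma adjusted p = 0.00029). Cyc1 rose by a further 0.33 ± 0.08 (adjusted p = 0.0032). Cox5a, a nuclear-encoded subunit of complex IV, was at 93.2, 89.0 and 91.7 RPKM in FGF8b and 110, 98.2 and 103 with BAY-876 (0.18 ± 0.06), and did not pass without FGF8b library 2 or 3 or BAY-876 library 1 or 3 (0.14 to 0.18). Atp5sl rose by 0.64 ± 0.12 and Atp5s fell by 0.53 (SE 0.13). Both carry ATP synthase names and are members by the name rule, but they are not subunits.

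Against control, FGF8b with BAY-876 had 18 members higher, against a background of 36.8%, 28 lower, against 35.9%, and 35 that did not pass (72.7% of all genes were called). The libraries of 41 members did not overlap, against 73.3% of all genes. Complex I had 4 higher and 14 lower, complex IV 7 and 3, and complex V 3 and 7, with 4 of 4 peripheral stalk subunits lower. Cox6a2 (3.33 ± 0.23, limma adjusted p = 2.6e-09), Uqcrq (1.82 ± 0.25, adjusted p = 6.4e-06), Cyc1 (0.72 ± 0.08, adjusted p = 1.2e-06), Ndufa12 (0.57 ± 0.09) and Atp5g1 (0.56 ± 0.10) stood above control. Cox6b2 (-1.07 ± 0.18), Cox6c (-0.82 ± 0.08), Uqcrh (-0.80 ± 0.07) and Ndufb11 (-0.64 ± 0.07) stood below it. Ndufa13 (-0.57 ± 0.18) did not pass without control library 1 (-0.44, adjusted p = 0.053) or BAY-876 library 1 (-0.40, adjusted p = 0.059), which lay at opposite ends of the axis of within-group spread. Cox7a1 (0.50 ± 0.22, adjusted p = 0.048) did not pass without control library 3 (0.16, adjusted p = 0.34) or with the length trend removed (0.44, adjusted p = 0.068).

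**Figure D5:**
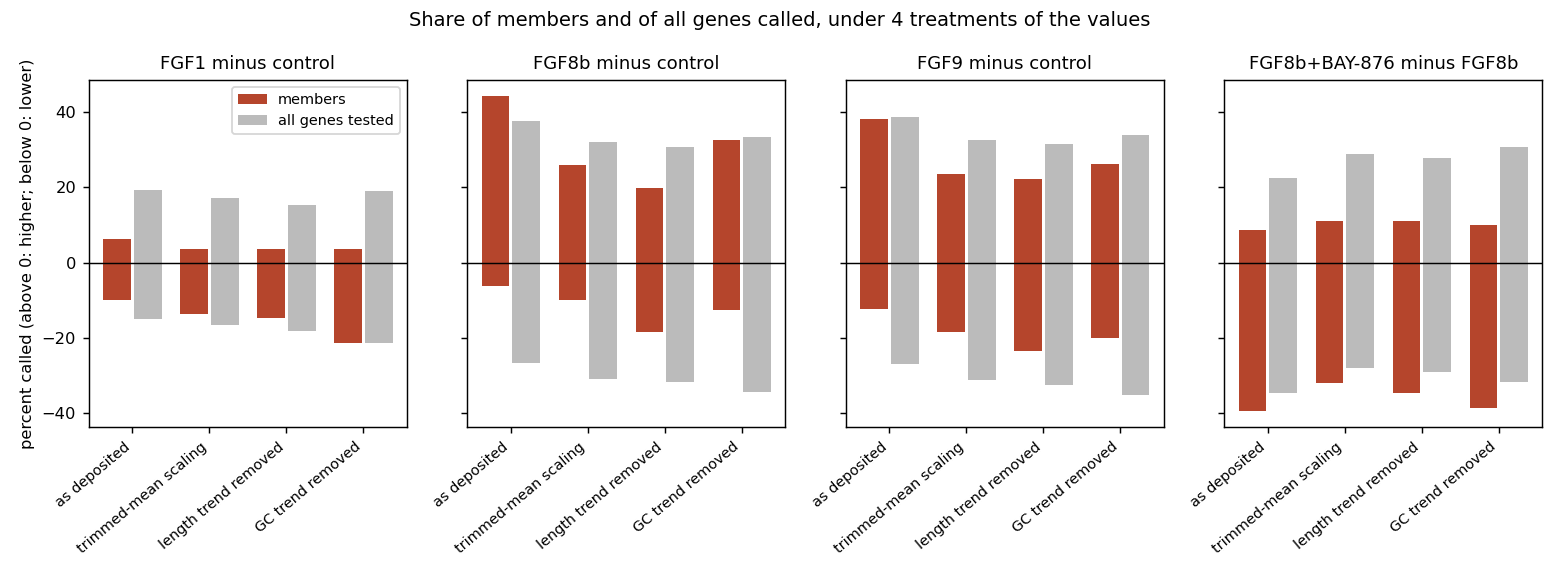
Bars above 0 give the percent of genes called higher and bars below 0 the percent called lower, for the members (red) and all genes tested (grey), in 4 comparisons. The horizontal axis gives the values as deposited and after 3 corrections. With FGF8b 36 members were higher as deposited and 16 with the length trend removed, while 5 and 15 were lower.

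The other genes of the pathway were read from lists, whose counts stand beside the shares of all genes called, 37.8% higher and 26.6% lower with FGF8b and 22.5% higher and 34.8% lower with BAY-876 over FGF8b. The lists are short, and nothing is read as particular to them. COX2, a catalytic subunit of complex IV encoded in mitochondrial DNA, was at 3636 ± 67.8 RPKM with FGF8b and 4545 ± 458 with BAY-876 (0.32, limma adjusted p = 0.0043). The controls were at 3833 ± 298 RPKM, and COX2 did not pass between them and FGF8b (-0.07). ND3, a complex I subunit of the same genome, also rose with BAY-876 (0.42, adjusted p = 0.016), and the other 5 of 7 tested lines with such symbols did not. The symbols of the lines COX3 and ND4L differ from those the annotation gives their identifiers, so their values are not given. Of 6 subunits and carriers that the name rule misses, 4 rose with FGF8b, against 37.8% of all genes. Cycs, cytochrome c, which carries electrons from complex III to IV, rose from 77.2 ± 4.37 to 146 ± 19.5 RPKM in FGF8b (0.91, adjusted p = 6e-08) and stood at 187 ± 5.67 with BAY-876. Ndufab1, the acyl carrier protein in complex I, rose by 0.60. Ndufa4l2, a low-oxygen relative of Ndufa4, was at 0.705 ± 0.625 RPKM in the controls, 7.76 ± 0.593 with FGF1, 4.29 ± 0.833 with FGF8b and 1.40 ± 0.283 with BAY-876.

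Assembly factors are not part of the finished complexes. For complex I, 8 of 14 rose with FGF8b, against 37.8% of all genes, and 1 fell, against 26.6%. The median was 0.29 on the log2 scale, against 0.08 for all genes, with Nubpl (1.01) and Ndufaf4 (0.90) rising and Tmem126b falling by 0.49. All 3 of complex V rose, Tmem70 by 0.54. Of 21 for complex IV, 3 rose and 4 fell, among them Cox16 (0.92), Lrpprc (0.75) and Coa3 (-0.73). With BAY-876 the complex IV factors split into 5 up and 8 down of 21, near the 22.5% and 34.8% of all genes, with Cox20 falling by 1.10. In complex III 3 of 3 factors fell. Of 3 supercomplex factors 2 rose with FGF8b, Higd1a from 35.5 ± 2.24 to 83 ± 9.22 RPKM (1.21, limma adjusted p = 1.9e-09) and Stoml2 (0.56). Higd1a also rose with FGF1 (1.55).

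Of 11 regulators of mitochondrial biogenesis 6 rose with FGF8b, against 37.8% of all genes, and 1 fell, against 26.6%. Their median was 0.46 on the log2 scale, against 0.08 for all genes. Nrf1 went from 10.6 ± 1.21 to 17.6 ± 0.488 RPKM (0.71, limma adjusted p = 4.8e-07), and Tfam, the factor that packs and transcribes mitochondrial DNA, rose by 0.55. Gabpa, a subunit of GABP, did not pass (0.10). It shares 397 exonic bases with the member Atp5j on the other strand. The coactivator Ppargc1a was at 0.318 ± 0.0634 RPKM in control, 0.0771 ± 0.0188 with FGF8b and 1.47 ± 0.180 with BAY-876. It is the 1 counted as lower with FGF8b, but it passed the filter only through the 3 BAY-876 libraries, so no test of it is given. Nrf1 fell by 0.51 with BAY-876. Of 11 genes of coenzyme Q synthesis 4 rose with FGF8b, near the 37.8% of all genes, and 1 fell, with Coq3 (0.88), Pdss1 (0.77) and Coq5 (0.60) rising. With BAY-876 1 rose and 4 fell, Coq9 by 0.57.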

How the data were processed

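RNA (TruSeq kit, total RNA per the labels' protocols) was measured in 15 libraries of 5 groups. The authors deposited 1 table of 168326 transcript lines, written with decimal commas, whose values were read as RPKM. The table and labels name no unit: it was taken from the values, since value times length came out in whole multiples of 1 step per library. Whole reads were so recovered for 100% of tested genes, within 0.02 reads and with more room at high read numbers. They gave depth, read ratios and the voom alternative. The length found with them equalled the annotated length for 90.9% of 3476 tested Ensembl lines. CASAVA and bcl2fastq are named per the submitters' processing notes. No source used here gives the aligner, build or annotation. How reads shared by overlapping genes were assigned, and whether strand was kept, is not stated either. In GENCODE vM21, 25 of 84 members share exonic bases with a gene on the opposite strand and 4 with one on the same strand. Besides Cox6a2, Cox6c and Ndufb11, the 25 include Ndufb5 (616 bases), Uqcrc2 (504), Ndufs1 (489) and Atp5j (397). Others are Ndufa13 (375), Atp5o (356), Atp5f1 (337) and Cox5a (269).

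Each symbol was represented by its line with the highest mean over the 15 columns. The 23172 lines without a symbol were left out. The filter on level stated for the members was applied to every gene, and levels were log2(RPKM + 0.5). limma 3.58.1 (R 4.3.3; eBayes with trend) was fitted over all 15 libraries (10 residual degrees of freedom), with Benjamini-Hochberg adjustment over 13869 genes in each of 7 comparisons. A fold change is on the log2(RPKM + 0.5) scale. Tables were handled in Python 3.11.15. The fit was tested on simulated data. Intervals are exact, at 95%, and cover counting error only.

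The members and lists were chosen with earlier results of these data known. The named members were all of complex II, the isoform pairs and, per comparison and direction, up to 8 with the largest log2 change among those past the threshold, without overlap of the groups and with a mean of at least 1 RPKM in either group. Of each pathway list they were the up to 3 with the largest such change in FGF8b over control. Other members and pathway genes were named after their values were seen. The replicate numbers were not used to pair libraries. Deviations from the group means correlated above 0.1 in 11 of 30 pairs with 1 number, with r from -0.44 to 0.53. Whether a number marks a shared culture or batch cannot be told from this. Alternatives were other added constants, filters, scalings, lines, tools and libraries left out.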

Additional observations from a re-analysis of the deposited data

How the results depend on the processing

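Of 5311 values under 28 alternatives, over 190 pairs of member and comparison, 5152 kept their side of the threshold. Of the others 119 no longer passed and 40 passed anew, and 0 that had passed changed sign. Leaving out a library of a group not compared cannot alter a log2 change or its sign. Nor can the other filters, the fit without the eBayes trend, the replicate block or the fit of only the groups compared. In these only the adjusted p could move, so the count of kept signs is no test there. Values short of the threshold did change sign, as for Cox4i1 in FGF8b (0.03, and -0.09 with the length trend removed). The counts were less stable. Trimmed-mean scaling gave 3 members higher in FGF1, 21 higher and 8 lower in FGF8b and 19 higher in FGF9. With the trend on transcript length removed, 3 were higher in FGF1, 16 higher and 15 lower in FGF8b, 18 higher and 19 lower in FGF9, and 17 lower in FGF8b and FGF9 against FGF1. With the trend on GC content removed (chosen after seeing the data), 3 were higher and 17 lower in FGF1, 10 lower in FGF8b and 16 lower in FGF9. A fit of only the groups compared gave 6 lower in FGF9, against 3457 of 13869 genes. The cause was not tested. Leaving out 1 library gave 2 to 5 higher and 6 to 9 lower in FGF1 (2 without FGF1 library 2, and 3 without FGF1 library 1 or control library 1). It gave 28 to 36 and 5 to 6 in FGF8b, 21 to 31 and 7 to 13 in FGF9, 5 to 7 and 29 to 38 for BAY-876 over FGF8b, 13 to 19 and 23 to 29 for BAY-876 over control, and 36 to 44 and 4 to 9 for FGF8b and FGF9 over FGF1 (4 and 5 lower without FGF1 libraries 1 and 2). FGF9 over FGF8b stayed at 0. Over all 13869 genes, the same fits gave 2126 to 2822 higher and 1778 to 2171 lower in FGF1. In FGF8b they gave 4724 to 5340 and 3363 to 3760, and in FGF9 4903 to 5387 and 3519 to 3758. For BAY-876 over FGF8b they gave 2685 to 3209 and 4287 to 4941, and over control 4757 to 5171 and 4628 to 5042. For FGF8b and FGF9 over FGF1 they gave 4654 to 5173 and 3666 to 4058. The count of members without overlap in FGF8b was 34 to 40 under the scaling, length and GC corrections. The share of all genes without overlap is given only for the values as deposited (67.5%), so this range has no background beside it. With the replicate number as a replicate block the counts were 5 and 9 in FGF1, against 2721 and 2129 of 13869 genes. They were 36 and 5 in FGF8b (5269 and 3747 of all genes) and 31 and 11 in FGF9 (5415 and 3780). For BAY-876 over FGF8b they were 7 and 35 (3160 and 4866). Of 15 libraries, 2 lay closest to their own number. Trimmed-mean scaling moved the median of all genes by at most 0.08 on the log2 scale. Of 980 complex medians 47 were counted as moved, and 15 of these changed sign. The alternatives named above that cannot alter a log2 change cannot move a median of the same members either. The 980 thus hold many medians whose outcome was fixed. The restriction to RefSeq NM lines gave no value for mitochondrially encoded subunits. Depth limits the restricted isoforms: Cox4i2 had 4 and Cox6a2 19 reads in all control libraries.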
